A study of Homo sapiens with 11 samples.

Results

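The SLC25 carriers are a family of nuclear-encoded transporters, most of which sit in the inner mitochondrial membrane. They were taken here as every protein-coding gene whose symbol is SLC25A followed by a number, which gave 48 of the 61464 rows of the deposited table and 48 of its 19881 protein-coding genes. That rule uses gene names and types and no measured value, but it was chosen with earlier results of these data known. The related proteins UCP1, UCP2, UCP3, MTCH1 and MTCH2 carry other symbols and are described apart, as are 50 rows for pseudogenes and antisense or divergent RNAs named after a member. HCT116, an established line of epithelial cells from a human colorectal carcinoma that the labels give as carrying a ras mutation, had been kept for 48 h with the solvent DMSO (3 libraries), with GTEA1 (4 libraries) or with GTEA7 (4 libraries). GTEA1 and GTEA7 are triterpenoid extracts of Ganoderma, a genus of bracket fungi, known only by their code names. The labels give no dose, put every library in batch 1, and do not say that replicates were separate cultures, so the p-values below measure only the spread between these samples. By its title, the series is about the mechanism by which these extracts inhibit stemness and migration. All results are from 1 cell line.

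Carriers of this family share a fold of repeated membrane-spanning segments, and most exchange a solute of the matrix for one of the cytosol. Through them ATP leaves the matrix in return for ADP, phosphate enters, and citrate leaves for lipid synthesis. Aspartate, glutamate, malate, acylcarnitine, iron, nucleotides and vitamin-derived cofactors also cross. Their proteins are made in the cytosol and reach the inner membrane by way of the TOM and TIM22 complexes. In colon cancer cells, as in other dividing cells, they link glycolysis, glutamine use and lipid synthesis to the respiratory chain.

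The starts of the members are shown before their values, to give the regions from which these transcripts begin. RefSeq promoter windows on GRCh38.p14, from 250 bases before to 50 bases after a start, were given for 40 of the 48 members (50 windows of 300 bases). The palindrome CACGTG, known as the E box, was in 9 of these windows (18%) and in 7.26% of all 35093 windows of the same length. TGACNNNGC, the pattern of antioxidant response elements, was in 9 member windows (18%) and in 13.4% of all. TGATGNAA, a pattern of C/EBP-ATF sites, was in 1 member window (2.0%, SLC25A11) and in 3.62% of all, and GCATGCGC, the core of NRF1 sites, was in 0 and in 3.05%. Both strands were searched, and in SLC25A13 an antioxidant match on the other strand overlaps the E box. A match describes these letters and is neither a binding site nor a cause.

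The stretches below hold the E box (in capitals) of members that rose or fell with an extract, each read 5′ to 3′ on the strand of its gene. SLC25A33 (chr1:9539414-9539464), SLC25A36 (chr3:140941668-140941723), SLC25A38 (chr3:39383301-39383356), SLC25A26 (chr3:66220926-66221000) and SLC25A46 (chr5:110738935-110738990) are on the plus strand. SLC25A13 (chr7:96322222-96322277) is on the minus strand.
SLC25A33: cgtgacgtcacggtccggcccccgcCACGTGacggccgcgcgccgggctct
SLC25A36: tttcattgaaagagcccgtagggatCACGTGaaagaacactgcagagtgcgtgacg
SLC25A38: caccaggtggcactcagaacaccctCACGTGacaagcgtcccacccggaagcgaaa
SLC25A26: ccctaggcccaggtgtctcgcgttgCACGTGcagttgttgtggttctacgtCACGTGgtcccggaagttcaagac
SLC25A46: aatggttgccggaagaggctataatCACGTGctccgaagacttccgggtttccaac
SLC25A13: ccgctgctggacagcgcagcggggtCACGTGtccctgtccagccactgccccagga
The first 4 rose with GTEA1 and the last 2 fell. In all, 4 of the 11 members that rose with GTEA1 and had a window held an E box, as did 2 of the 16 that fell. For TGACNNNGC, it was 1 of the 11 that rose and 5 of the 16 that fell. These counts are small, and no difference between members that rose and fell was tested. The member with the largest rise under GTEA7, SLC25A1, has TGACNNNGC (in capitals) 56 bases before its start (chr22:19178759-19178817, minus strand).
SLC25A1: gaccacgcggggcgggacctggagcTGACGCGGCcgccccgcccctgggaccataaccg

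Total counts per library ranged from 13742326 to 19304211, and 17963 genes had enough counts to be tested. Levels are in CPM, that is, counts scaled to a common total by library size and TMM factor. Levels and shares are given ± SD (DMSO n = 3, GTEA1 and GTEA7 n = 4), and log2 fold changes ± standard error (SE). Replicates of a group differed by more than counting noise in every pair. Of 7 epithelial markers, 6 had counts and CDX1 was at 0, with a summed level of 2311 to 2463 CPM in DMSO, 2868 to 3011 in GTEA1 and 2317 to 2415 in GTEA7. Leukocyte markers summed to at most 0.897 CPM in any library. The summed level of 5 fibroblast markers was 53.7 to 55.4 CPM in DMSO, 38.3 to 45.6 in GTEA1 and 36.8 to 46.0 in GTEA7. Only 2 of these 5 had enough counts to be tested. LUM was at 0 counts in DMSO, and DCN and LUM were in GTEA7. The summed level of 4 endothelial markers was at most 4.27 CPM. What part these shifts have in the results below was not tested.

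Of the 48 members, 44 had enough counts to be tested. The others were SLC25A2 (8 counts over all 11 libraries), SLC25A31 (8), SLC25A47 (3) and SLC25A52 (24). The members took 0.249% ± 0.004 of all counts in DMSO, 0.242% ± 0.0045 in GTEA1 and 0.262% ± 0.00126 in GTEA7. Every GTEA7 library (0.261% to 0.264%) lay above every DMSO library (0.245% to 0.253%), while GTEA1 (0.238% to 0.248%) overlapped DMSO. That overlap was lost when mitochondrially encoded genes were left out of the total, with GTEA1 at 0.272% to 0.287% and DMSO at 0.288% to 0.294%. The 5 members with the most counts held 57.3% of the members' counts in DMSO, 61.4% in GTEA1 and 58.8% in GTEA7. The share thus rests largely on few members. SLC25A3, with the most counts, stood at 548 ± 18.4 CPM in DMSO, 478 ± 20.8 in GTEA1 and 671 ± 13.2 in GTEA7. Genes can be compared per kilobase, here of median transcript length. On that scale the phosphate carrier SLC25A3 was the most abundant member in DMSO (403 ± 13.6 CPM per kb), followed by SLC25A5 (199.6 ± 11.0). SLC25A39 (102 ± 1.42) came next, and then SLC25A36 (86.6 ± 4.94) and SLC25A6 (86.2 ± 2.11), which did not differ beyond their spread. The lowest tested member stood at 0.161 CPM per kb. The order depends on the length chosen. Merged exons hold 8896 bases in SLC25A3 (median transcript 1359), 10305 in SLC25A36 (2419) and 1500 in SLC25A5 (1274). The order on merged exons was not worked out.

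The first comparison, GTEA1 against DMSO, asked which carriers this extract changed. Members moved in both directions: 14 of the 44 tested were higher and 17 were lower, with the iron carrier SLC25A37, the ATP-Mg/phosphate carrier SLC25A25 and the pyrimidine nucleotide carrier SLC25A33 among the rises and SLC25A48, SLC25A10 and SLC25A45 among the falls. Calls were made at an adjusted p under 0.05 in edgeR's quasi-likelihood test. Over all tested genes 35.6% were higher and 36.2% lower, and over the 13304 tested protein-coding genes 38.5% and 38.4%. The members' shares of 31.8% and 38.6% were near these backgrounds. By at least 2-fold, 1 member was higher (SLC25A32) and 4 were lower (SLC25A48, SLC25A34, SLC25A18 and SLC25A10), beside 8.56% and 12.4% of all genes. The median log2 fold change was -0.01 over the members and -0.01 over all genes. Among the called members, only SLC25A18 had GTEA1 libraries that overlapped the DMSO libraries. The calls rest on these same libraries, so the lack of overlap in the others is no further support. Its share over all genes was not counted. When libraries were scaled by size alone, the median of all genes was -0.167, small rises shrank, small falls grew, and 10 members were higher and 21 lower. A lower CPM cannot be told apart from a change in the RNA each cell holds.

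The second comparison, GTEA7 against DMSO, asked the same of the other extract. Here 11 of 44 members were higher and 1 was lower, none by 2-fold. The rises were led by the citrate carrier SLC25A1, SLC25A33 and the ornithine carrier SLC25A15, and the fall was that of the basic amino acid carrier SLC25A29. The test called 12.0% of all genes higher and 10.4% lower, and 14.9% and 12.4% of protein-coding genes. The members' shares were 25% and 2.27%. The median was 0.09 over the members and -0.01 over all genes. None of the 12 called members had a GTEA7 library among the DMSO libraries. As the calls rest on these same libraries, that is no further support, and the share over all genes was not counted. With library size only, 7 members were higher and 5 lower (median of all genes -0.0597), and without DMSO replicate 2 there were 7 higher and 1 lower.

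The third comparison set the extracts against each other. In GTEA7, 21 members were higher than in GTEA1 and 13 were lower (47.7% and 29.5% of the tested members). Of all genes, 36.2% were higher and 36.4% lower, and of protein-coding genes 38.8% and 38.9%. The median was 0.09 over the members and 0.0 over all genes. With library size only, the counts were 25 and 10 (median of all genes 0.109). The largest differences among members of at least 1 CPM were those of SLC25A48, SLC25A10 and SLC25A45, which were higher with GTEA7, and of SLC25A25, SLC25A37 and SLC25A29, which were higher with GTEA1. Both extracts were compared with the same DMSO libraries, so their fold changes are given side by side below and not set against each other by correlation. The extracts' doses are not given in the labels, so the difference between them holds for the doses used.

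**Figure D1:**
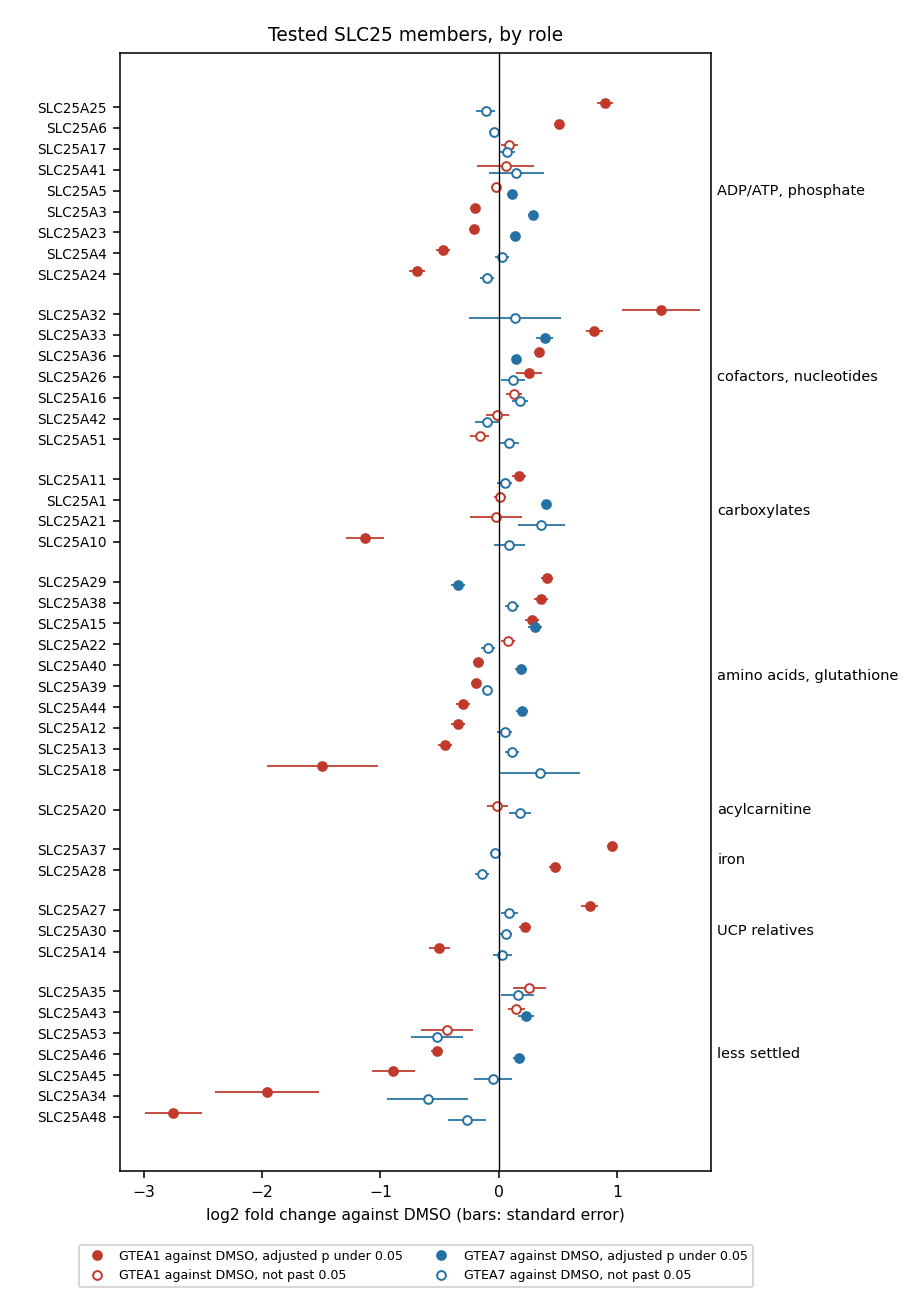
Log2 fold change against DMSO (x axis) of 43 of the 44 tested members (y axis), grouped by role, for GTEA1 (red) and GTEA7 (blue). Bars are standard errors and filled points have an adjusted p under 0.05. GTEA1 values reach from -2.75 (SLC25A48) to 1.37 (SLC25A32), GTEA7 values from -0.60 (SLC25A34, not past the threshold) to 0.40 (SLC25A1). With scaling by library size only, the GTEA1 value of SLC25A1 turns from 0.01 to -0.15.

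Counts per role are given below. Over all tested genes, 35.6% were higher and 36.2% lower with GTEA1, and 12.0% and 10.4% with GTEA7. For protein-coding genes these shares were 38.5% and 38.4%, and 14.9% and 12.4%. The counts per role are small and were not tested against these shares. Among the carriers of ADP, ATP and phosphate (9 tested), 2 rose and 4 fell with GTEA1, and 3 rose with GTEA7. SLC25A3 (ENSG00000075415, chromosome 12) brings in the phosphate for ATP synthesis. It stood at 527, 554 and 562 CPM in DMSO, at 500.2, 471, 489 and 453 CPM in GTEA1, and at 658, 679, 685 and 662 CPM in GTEA7. The 3 groups did not overlap, with GTEA1 lowest and GTEA7 highest. Its log2 fold change was -0.20 ± 0.04 with GTEA1 (adjusted p = 3.18e-06) and 0.29 ± 0.04 with GTEA7 (adjusted p = 5.46e-09). Between the extracts it was 1.4-fold higher with GTEA7 (log2 0.49 ± 0.03, adjusted p = 8.94e-19).

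The ADP/ATP carriers SLC25A4, SLC25A5 and SLC25A6 exchange ATP of the matrix for ADP of the cytosol, and did not move together. SLC25A6 (ENSG00000169100) stood at 173, 180 and 181 CPM in DMSO, at 255, 254, 262 and 243 CPM in GTEA1, and at 176, 175, 169 and 168 CPM in GTEA7. All 4 GTEA1 libraries were above all others, a rise of 1.43-fold (log2 0.51 ± 0.04, adjusted p = 3.42e-18), while GTEA7 overlapped DMSO (log2 -0.04 ± 0.04, adjusted p = 0.407). SLC25A4 (ENSG00000151729, chromosome 4), the form typical of heart and muscle, stood at 27.1, 29.5 and 27.9 CPM in DMSO, at 21.2, 20.6, 21.2 and 18.6 CPM in GTEA1, and at 28.2, 30.0, 28.7 and 27.7 CPM in GTEA7. Its GTEA1 libraries were below all others (log2 -0.47 ± 0.06, adjusted p = 8.53e-09), and GTEA7 and DMSO overlapped (log2 0.03 ± 0.06, adjusted p = 0.81). SLC25A5 (ENSG00000005022), the form typical of dividing cells, stood at 238, 265 and 259 CPM in DMSO, at 264, 249, 259.5 and 233 CPM in GTEA1, and at 268, 276, 287 and 269.8 CPM in GTEA7. GTEA1 and DMSO overlapped (log2 -0.02 ± 0.04, adjusted p = 0.692), and GTEA7 lay just above both (log2 against DMSO 0.11 ± 0.04, adjusted p = 0.0279). That small rise had an adjusted p of 0.269 without DMSO replicate 1 (log2 0.07), 0.0657 without GTEA7 replicate 2 (0.11), 0.101 without GTEA7 replicate 3 (0.10) and 0.251 with library size only (0.06). With library size only, SLC25A5 was called lower with GTEA1 (-0.18, adjusted p = 7.91e-05) and SLC25A6 lower with GTEA7 (-0.10, adjusted p = 0.0474). Exons of other genes, SLC25A5-AS1 the most, cover 15.1% of the exonic bases of SLC25A5. SLC25A5-AS1 held 184 counts over all libraries and passed in no comparison.

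Per transcript length, SLC25A5 held 68.3% ± 0.709 of the ADP/ATP carrier transcripts in DMSO, 60.7% ± 0.759 in GTEA1 and 70.6% ± 0.918 in GTEA7. SLC25A6 held 29.5% ± 0.656, 37.9% ± 0.793 and 27.3% ± 0.909 in the same order, and SLC25A4 2.17% ± 0.052, 1.42% ± 0.0263 and 2.11% ± 0.0574. The 4 GTEA1 libraries, at 36.8% to 38.7% SLC25A6, lay apart from DMSO (28.9% to 30.2%) and from GTEA7 (26.1% to 28.3%), so the makeup of these carriers moved toward SLC25A6 with GTEA1. SLC25A6 lies in the region shared by both sex chromosomes, and the family has many pseudogenes. Of the rows, 43 are pseudogenes that bear a member's name, none was tested, and the largest held 69 counts over all libraries. Reads that fit several copies may have been lost from counting in every group.

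**Figure D2:**
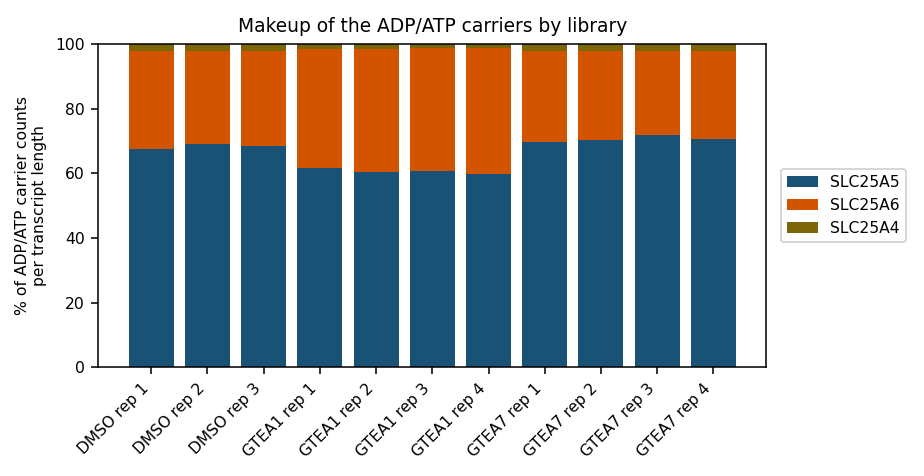
Share of each ADP/ATP carrier (y axis, % of their counts divided by transcript length) in each of the 11 libraries (x axis). SLC25A6 took 36.8% to 38.7% in the GTEA1 libraries and at most 30.2% in any other.

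The calcium-regulated ATP-Mg/phosphate carriers, which adjust the adenine nucleotide pool of the matrix, also split. SLC25A25 (ENSG00000148339, chromosome 9) stood at 13.1, 14.5 and 14.6 CPM in DMSO, at 25.5, 25.8, 27.8 and 25.5 CPM in GTEA1, and at 13.5, 13.6, 13.3 and 11.6 CPM in GTEA7. All GTEA1 libraries were above all others, a rise of 1.87-fold (log2 0.90 ± 0.07, adjusted p = 1.14e-15), while GTEA7 overlapped DMSO (log2 -0.11 ± 0.08, adjusted p = 0.367). Exons of other genes, the antisense partner SLC25A25-AS1 the most, cover 16.2% of the exonic bases of SLC25A25. SLC25A25-AS1 went the other way: 19 ± 0.562 CPM in DMSO, 14.6 ± 0.95 in GTEA1 and 16.3 ± 1.1 in GTEA7 (log2 -0.38 ± 0.08, adjusted p = 1.61e-05, and -0.22 ± 0.07, adjusted p = 0.0227). Without known strand, reads of the overlap cannot be assigned to 1 of the pair.

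SLC25A24 (ENSG00000085491, chromosome 1), a close relative, stood at 25.4, 24.5 and 25.8 CPM in DMSO, at 16.3, 14.5, 16.5 and 15.1 CPM in GTEA1, and at 23.1, 24.0, 24.5 and 22.4 CPM in GTEA7. It was lowest in the 4 GTEA1 libraries, 1.61-fold below DMSO (log2 -0.69 ± 0.07, adjusted p = 8.39e-13), and GTEA7 overlapped DMSO (log2 -0.10 ± 0.06, adjusted p = 0.279). SLC25A23, the third of the calcium-regulated group, fell by 0.21 with GTEA1 (SE 0.04, adjusted p = 1.04e-05) and rose by 0.14 with GTEA7 (SE 0.04, adjusted p = 0.00667). The rise with GTEA7 was not called without DMSO replicate 2 (0.12, adjusted p = 0.0542) or with library size only (0.09, adjusted p = 0.104). SLC25A41, a short form without the calcium-binding part, was at 1.04 to 1.76 CPM throughout, and SLC25A17, the peroxisomal carrier of cofactors, at 21.5 to 26.0 CPM. Neither passed in any comparison.

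**Figure D3:**
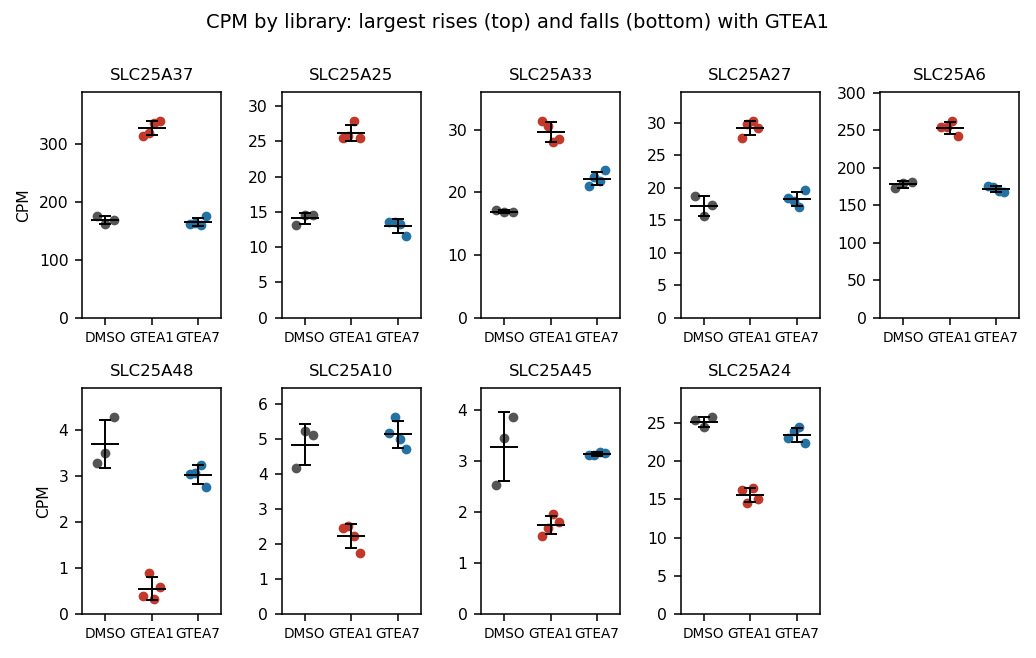
CPM (y axis, from 0) in each library for members of at least 1 CPM with the largest rises (5, top row) and falls (4, bottom row) under GTEA1. Points are libraries, bars the mean and SD of DMSO (n = 3), GTEA1 (n = 4) and GTEA7 (n = 4). In all 9 panels the GTEA1 points lie apart from the DMSO points.

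Of the 8 tested cofactor and nucleotide carriers, 4 rose with GTEA1 and 2 with GTEA7. SLC25A33 (ENSG00000171612, chromosome 1), which carries pyrimidine nucleotides for mitochondrial DNA and RNA, stood at 17.2, 16.8 and 16.8 CPM in DMSO, at 31.3, 30.6, 28.1 and 28.5 CPM in GTEA1, and at 21.0, 22.4, 21.8 and 23.5 CPM in GTEA7. The 3 groups did not overlap. It rose 1.75-fold with GTEA1 (log2 0.81 ± 0.07, adjusted p = 1.76e-15) and 1.31-fold with GTEA7 (log2 0.39 ± 0.07, adjusted p = 1.6e-05), and GTEA7 was below GTEA1 (log2 -0.42 ± 0.06, adjusted p = 1.17e-08). Its relative SLC25A36, a carrier of the same kind of nucleotides, went from 209.6 ± 11.9 CPM to 266 ± 10.2 with GTEA1 (log2 0.34 ± 0.04, adjusted p = 1.09e-11) and to 233 ± 3.49 with GTEA7 (log2 0.15 ± 0.04, adjusted p = 0.00145). Without DMSO replicate 3, the GTEA7 rise of SLC25A36 was 0.11 (adjusted p = 0.0536).

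SLC25A51 (ENSG00000122696, chromosome 9), the carrier of NAD, stood at 15.0, 17.2 and 15.0 CPM in DMSO, at 14, 15.0, 12.9 and 14.6 CPM in GTEA1, and at 16.8, 15.9, 17.3 and 17.4 CPM in GTEA7. It did not pass against DMSO (log2 -0.16 ± 0.08 and 0.09 ± 0.08, adjusted p = 0.0656 and 0.439), though GTEA7 was above GTEA1 (log2 0.25 ± 0.07, adjusted p = 0.00205). Without DMSO replicate 1 it was called lower with GTEA1 (-0.20, adjusted p = 0.0442), and likewise with library size only (-0.32, adjusted p = 0.000463).

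SLC25A32, the mitochondrial folate carrier, had the largest log2 fold change of any member to rise (1.37 ± 0.33 with GTEA1, adjusted p = 0.000297) but few counts, at 0.27 to 0.646 CPM in DMSO, 1.05 to 1.4 in GTEA1 and 0.358 to 0.708 in GTEA7. Of its exonic bases, 80.8% overlap other annotated genes, 69.7% on the same strand. The main overlapping row held 0 counts in all libraries, so its level here may be less than what the cells hold. SLC25A26, which brings S-adenosylmethionine for methylation in the matrix, rose by 0.26 with GTEA1 (SE 0.11, adjusted p = 0.023). Leaving out 1 library ended that call in 4 cases, with a log2 fold change and adjusted p of 0.25 and 0.0562 for DMSO replicate 1, 0.25 and 0.061 for DMSO replicate 3, 0.22 and 0.0739 for GTEA1 replicate 1, and 0.23 and 0.0657 for GTEA1 replicate 2. It was also lost with library size only (0.10, adjusted p = 0.381) and in the Wald test of DESeq2 (0.27, adjusted p = 0.084). Exons of other genes, LRIG1 the most, cover 15.5% of the exonic bases of SLC25A26, and LRIG1 fell by 0.69 with GTEA1 (adjusted p = 2.11e-05). SLC25A42, which carries coenzyme A, and SLC25A16 passed in no comparison, with means of 10.2 to 11.0 and 17.6 to 19.8 CPM. The value of SLC25A16 with GTEA7 (0.18 ± 0.07, adjusted p = 0.055) was past the threshold without GTEA1 replicate 1 (adjusted p = 0.0406), GTEA1 replicate 4 (0.0461) or GTEA7 replicate 3 (log2 0.22, adjusted p = 0.0271). It also passed with DESeq2 size factors (0.19, adjusted p = 0.0419) and in a fit of those 2 groups alone (0.18, adjusted p = 0.0422).

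Of the 4 carboxylate carriers, 1 rose and 1 fell with GTEA1 and 1 rose with GTEA7. SLC25A1 (ENSG00000100075, chromosome 22) exports citrate, from which cytosolic acetyl-CoA for fatty acids and sterols is made. It stood at 65.3, 71.0 and 75.0 CPM in DMSO, at 74.1, 68.5, 72.8 and 68.6 CPM in GTEA1, and at 90.6, 95.0, 91.1 and 94.2 CPM in GTEA7. All GTEA7 libraries were above all others, while GTEA1 and DMSO overlapped. With GTEA7 it rose 1.32-fold (log2 0.40 ± 0.04, adjusted p = 4.23e-10), the largest rise of a member with that extract. Its value with GTEA1 was 0.01 ± 0.05 (adjusted p = 0.803), which turned to -0.15 with library size only (adjusted p = 0.00412). Between the extracts it was 1.31-fold higher with GTEA7 (log2 0.39 ± 0.04, adjusted p = 6.62e-12).

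SLC25A10 (ENSG00000183048, chromosome 17), which exchanges malate and succinate for phosphate, stood at 4.17, 5.24 and 5.11 CPM in DMSO, at 2.45, 2.5, 2.23 and 1.73 CPM in GTEA1, and at 5.18, 5.63, 5.01 and 4.73 CPM in GTEA7. Every GTEA1 library was below every other, 2.18-fold below DMSO (log2 -1.13 ± 0.16, adjusted p = 1.45e-08), and GTEA7 overlapped DMSO (log2 0.09 ± 0.13, adjusted p = 0.664). Other annotation on the same strand overlaps 46.6% of its exonic bases. The main overlapping row held 0 counts in every library, so reads of that stretch may be missing from the level of SLC25A10. SLC25A11, the oxoglutarate carrier of the malate-aspartate shuttle, rose by 0.17 with GTEA1 (SE 0.06, adjusted p = 0.00701). Without DMSO replicate 1 this was 0.09 (adjusted p = 0.199), and with library size only 0.01 (adjusted p = 0.836). GTEA7 was below GTEA1 by 0.12 (SE 0.05, adjusted p = 0.0346), a call lost without GTEA1 replicates 1 or 3 or GTEA7 replicates 2, 3 or 4 (adjusted p = 0.0536 to 0.101), with library size only (-0.02, adjusted p = 0.804), with no low-count filter (-0.12, adjusted p = 0.0666) and in the Wald test of DESeq2 (-0.12, adjusted p = 0.143). SLC25A21, which carries oxoadipate, was at 1.51 to 2.82 CPM and passed in no comparison. Its difference between the extracts (0.38 ± 0.19, adjusted p = 0.0723) was called without GTEA1 replicate 2 (0.46, adjusted p = 0.047) or GTEA7 replicate 4 (0.46, adjusted p = 0.0344), and with library size only (0.48, adjusted p = 0.0207). Exons of other genes, SLC25A21-AS1 the most, cover 28.8% of the exonic bases of SLC25A21. SLC25A21-AS1, at 0.307 to 1.31 CPM, was lower in GTEA7 than in GTEA1 (log2 -0.96 ± 0.31, adjusted p = 0.00576). Against DMSO it passed with neither extract.

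Of the amino acid, ornithine and glutathione carriers (10 tested), 3 rose and 6 fell with GTEA1, and 3 rose and 1 fell with GTEA7. SLC25A12 and SLC25A13 are the aspartate/glutamate carriers of the malate-aspartate shuttle. SLC25A12 (ENSG00000115840, chromosome 2) stood at 37.7, 36.3 and 34.2 CPM in DMSO, at 30.3, 25.8, 29.3 and 29 CPM in GTEA1, and at 35.7, 38.1, 34.7 and 40.9 CPM in GTEA7. SLC25A13 (ENSG00000004864, chromosome 7) stood at 28.0, 29.1 and 27.7 CPM in DMSO, at 21.9, 21.4, 19.7 and 20.1 CPM in GTEA1, and at 29, 30.1, 30.5 and 32.4 CPM in GTEA7. In both, the GTEA1 libraries were below all others and GTEA7 overlapped DMSO. With GTEA1 SLC25A12 fell by 0.34 (SE 0.06, adjusted p = 3.46e-06) and SLC25A13 by 0.45 (SE 0.06, adjusted p = 1.45e-08). With GTEA7 the values were 0.05 ± 0.06 and 0.11 ± 0.06 (adjusted p = 0.628 and 0.2).

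SLC25A29 (ENSG00000197119, chromosome 14) carries arginine, lysine and other basic amino acids, and was the member that fell with GTEA7. It stood at 35.4, 35.1 and 34.4 CPM in DMSO, at 45.1, 45.2, 50 and 45.4 CPM in GTEA1, and at 26.9, 28.4, 27.2 and 27.8 CPM in GTEA7. The 3 groups did not overlap. With GTEA1 it rose 1.33-fold (log2 0.41 ± 0.05, adjusted p = 1.83e-09), with GTEA7 it fell 1.27-fold (log2 -0.34 ± 0.06, adjusted p = 3.78e-06), and the extracts differed 1.68-fold (log2 -0.75 ± 0.05, adjusted p = 8.04e-19). SLC25A15 (ENSG00000102743, chromosome 13), the ornithine carrier of the urea cycle, stood at 24.4, 24.1 and 21.6 CPM in DMSO, at 28.5, 28.3, 28.6 and 28.6 CPM in GTEA1, and at 28.6, 30.1, 30.8 and 26.7 CPM in GTEA7. Both extracts were above DMSO and overlapped each other. Its log2 fold change was 0.28 ± 0.06 with GTEA1 (adjusted p = 9.63e-05) and 0.31 ± 0.06 with GTEA7 (adjusted p = 0.000117). With library size only, the GTEA1 value was 0.12 (adjusted p = 0.0802).

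SLC25A22 (ENSG00000177542, chromosome 11), a glutamate carrier, stood at 33.2, 31.5 and 32.4 CPM in DMSO, at 34.0, 34.8, 33.8 and 34.6 CPM in GTEA1, and at 33.7, 29.5, 29 and 29 CPM in GTEA7. The GTEA1 libraries lay just above all others without passing (log2 0.08 ± 0.06, adjusted p = 0.189), and GTEA7 overlapped DMSO (log2 -0.09 ± 0.06, adjusted p = 0.26). GTEA7 was below GTEA1 (log2 -0.18 ± 0.05, adjusted p = 0.00301), which was not called with library size only (-0.07, adjusted p = 0.257). The other glutamate carrier, SLC25A18, was at most at 1.18 CPM and fell by 1.49 with GTEA1 (SE 0.47, adjusted p = 0.00467), or by 1.13 without DMSO replicate 2 (adjusted p = 0.0731). SLC25A38, which carries glycine for heme synthesis, rose by 0.36 with GTEA1 (SE 0.06, adjusted p = 5.42e-07). SLC25A44, which carries branched-chain amino acids, fell by 0.30 with GTEA1 (SE 0.06, adjusted p = 1.22e-05) and rose by 0.20 with GTEA7 (SE 0.05, adjusted p = 0.00505). That rise was 0.14 without DMSO replicate 2 (adjusted p = 0.0979).

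The glutathione carriers SLC25A39 and SLC25A40 supply the antioxidant glutathione to the matrix. SLC25A39 (ENSG00000013306, chromosome 17) stood at 157, 159 and 155 CPM in DMSO, at 146, 138, 138 and 128 CPM in GTEA1, and at 152, 151, 141 and 142 CPM in GTEA7. Both extracts lay below DMSO and overlapped each other. It fell by 0.19 with GTEA1 (SE 0.04, adjusted p = 2.7e-05), and its value with GTEA7 was -0.10 ± 0.04 (adjusted p = 0.0642). The GTEA7 value was called in a fit of those 2 groups alone (adjusted p = 0.0271), without GTEA1 replicate 1 (-0.09, adjusted p = 0.0415), without GTEA7 replicate 1 (-0.12, adjusted p = 0.0405), and with library size only (-0.15, adjusted p = 0.00421). Its difference between the extracts (0.10 ± 0.04, adjusted p = 0.0189) had an adjusted p of 0.138 without GTEA1 replicate 4 (log2 0.06), and of 0.0796 and 0.0765 without GTEA7 replicates 1 and 2 (0.08). SLC25A40 had a mean of 38.5 ± 1.55 CPM in DMSO, 34.2 ± 0.77 in GTEA1 (log2 -0.17 ± 0.05, adjusted p = 0.00438) and 43.8 ± 1.61 in GTEA7 (log2 0.19 ± 0.05, adjusted p = 0.00491). Without DMSO replicate 2 the rise with GTEA7 was 0.15 (adjusted p = 0.0611). DBF4, a gene whose exons overlap SLC25A40, changed by -0.27 with GTEA1 and 0.31 with GTEA7 (adjusted p = 1.32e-05 and 2.58e-06). Exons of other genes, mainly DBF4, cover only 2.8% of the exonic bases of SLC25A40, and 0.0% on the same strand.

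SLC25A20 (ENSG00000178537, chromosome 3) exchanges acylcarnitines for carnitine and admits fatty acids to oxidation. It stood at 10.3, 12.2 and 12.4 CPM in DMSO, at 12.8, 11.3, 11.6 and 10.8 CPM in GTEA1, and at 13.0, 14.3, 12.2 and 12.9 CPM in GTEA7. All 3 groups overlapped, and it passed against DMSO with neither extract (log2 -0.01 ± 0.09 and 0.18 ± 0.09, adjusted p = 0.964 and 0.154). The adjusted p of 0.0496 for GTEA7 against GTEA1 (log2 0.18 ± 0.08) was past the threshold. It was 0.193 without GTEA7 replicate 2 (log2 0.13), 0.148 without GTEA1 replicate 4 (0.15), 0.0932 without GTEA1 replicate 2 (0.17), 0.0781 without GTEA1 replicate 3, 0.061 without GTEA7 replicate 1, and 0.0519 and 0.0511 without DMSO replicates 2 and 3. It was also lost with a replicate block (0.0607), with no low-count filter (0.0703) and in the Wald test of DESeq2 (0.149), each given as an adjusted p.

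Both iron carriers, the mitoferrins, rose with GTEA1. SLC25A37 (ENSG00000147454), which delivers iron for heme and iron-sulfur clusters, stood at 175, 161 and 169 CPM in DMSO, at 313, 319, 335 and 338 CPM in GTEA1, and at 162, 163, 159.9 and 176 CPM in GTEA7. All GTEA1 libraries were far above the others, 1.94-fold over DMSO (log2 0.96 ± 0.04, adjusted p = 8.18e-28), the smallest adjusted p of any member in this comparison. GTEA7 and DMSO overlapped (log2 -0.03 ± 0.04, adjusted p = 0.679), and the extracts differed 1.97-fold (log2 -0.98 ± 0.03, adjusted p = 4.92e-30). SLC25A28, the mitoferrin of most tissues, went from 32.2 ± 0.719 CPM to 45 ± 2.56 with GTEA1 (log2 0.48 ± 0.05, adjusted p = 4.39e-11). With GTEA7 it was at 29.1 ± 0.658 (log2 -0.14 ± 0.06, adjusted p = 0.0601), below all DMSO libraries, and was called lower in a fit of those 2 groups alone (adjusted p = 0.0454) and with library size only (-0.19, adjusted p = 0.00982).

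Among relatives of the uncoupling proteins, 2 rose and 1 fell with GTEA1 and 0 passed with GTEA7. SLC25A27 (ENSG00000153291, chromosome 6), known from brain, stood at 18.7, 15.6 and 17.4 CPM in DMSO, at 27.7, 29.8, 30.2 and 29.2 CPM in GTEA1, and at 18.5, 18, 17.0 and 19.7 CPM in GTEA7. The GTEA1 libraries were above all others, 1.7-fold over DMSO (log2 0.77 ± 0.07, adjusted p = 4.09e-14), and GTEA7 overlapped DMSO (log2 0.09 ± 0.07, adjusted p = 0.437). SLC25A30 rose by 0.22 (SE 0.05, adjusted p = 0.000129), which was 0.06 with library size only (adjusted p = 0.283). GTEA7 was below GTEA1 in SLC25A30 (log2 -0.16 ± 0.05, adjusted p = 0.00182), a call lost with library size only (-0.05, adjusted p = 0.313). SLC25A14 fell by 0.50 (SE 0.09, adjusted p = 4.41e-06).

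Members of less settled substrate (7 tested) had 0 rises and 4 falls with GTEA1, and 2 rises and 0 falls with GTEA7. SLC25A48 (ENSG00000145832, chromosome 5) had the largest fall of all members. It stood at 3.29, 3.51 and 4.28 CPM in DMSO, at 0.384, 0.882, 0.327 and 0.578 CPM in GTEA1, and at 3.05, 3.07, 3.24 and 2.76 CPM in GTEA7. GTEA1 was 6.71-fold below DMSO (log2 -2.75 ± 0.24, adjusted p = 1.15e-14). GTEA7 lay just below DMSO without passing (log2 -0.27 ± 0.16, adjusted p = 0.244), and was 5.57-fold above GTEA1 (log2 2.48 ± 0.23, adjusted p = 1.95e-13).

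SLC25A45 (ENSG00000162241, chromosome 11) stood at 2.53, 3.45 and 3.86 CPM in DMSO, at 1.53, 1.69, 1.96 and 1.8 CPM in GTEA1, and at 3.11, 3.12, 3.18 and 3.15 CPM in GTEA7. The GTEA1 libraries were below all others (log2 against DMSO -0.89 ± 0.18, adjusted p = 2.98e-05), and GTEA7 overlapped DMSO (log2 -0.05 ± 0.16, adjusted p = 0.854). SLC25A34 was at most at 1.17 CPM, with 0 counts in GTEA1 replicate 2, and fell by 1.96 with GTEA1 (SE 0.44, adjusted p = 0.000109). SLC25A46, an outer membrane member known from mitochondrial fission and fusion, went from 69.5 ± 2.63 CPM to 48.7 ± 3.47 with GTEA1 (log2 -0.52 ± 0.05, adjusted p = 2.33e-13) and to 78.3 ± 3.15 with GTEA7 (log2 0.17 ± 0.05, adjusted p = 0.00391). The rise was 0.14 without DMSO replicate 3 (adjusted p = 0.0501) and 0.12 with library size only (adjusted p = 0.0542).

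SLC25A43 (ENSG00000077713), without a settled substrate, stood at 19.2, 18 and 17.5 CPM in DMSO, at 21.6, 21.2, 18.7 and 19.7 CPM in GTEA1, and at 22.8, 21.5, 21.5 and 19.6 CPM in GTEA7. GTEA7 lay above DMSO and GTEA1 overlapped both. Its rise with GTEA7 (log2 0.23 ± 0.07, adjusted p = 0.013) had an adjusted p of 0.0576 without DMSO replicate 2, 0.0745 without DMSO replicate 3, 0.0556 without GTEA7 replicate 1 and 0.0632 with library size only (log2 0.18 to 0.22). The GTEA1 value (0.15 ± 0.07, adjusted p = 0.065) was called without DMSO replicate 1 (0.18, adjusted p = 0.0458), without GTEA1 replicate 3 (0.19, adjusted p = 0.0256) and with the replicate block (0.18, adjusted p = 0.0251). SLC25A35 and SLC25A53 passed in no comparison, at 3.64 to 5.83 and 0.943 to 2.9 CPM. SLC25A53, at -0.44 ± 0.22 with GTEA1 (adjusted p = 0.071), was called lower without DMSO replicate 1 (-0.56, adjusted p = 0.0431), without GTEA1 replicate 4 (-0.54, adjusted p = 0.046) and with the replicate block (-0.54, adjusted p = 0.0408). With library size only it was called lower with both extracts (-0.60 with GTEA1, adjusted p = 0.0136, and -0.57 with GTEA7, adjusted p = 0.0477), where the GTEA7 value was otherwise -0.52 ± 0.22 (adjusted p = 0.0781).

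**Figure D4:**
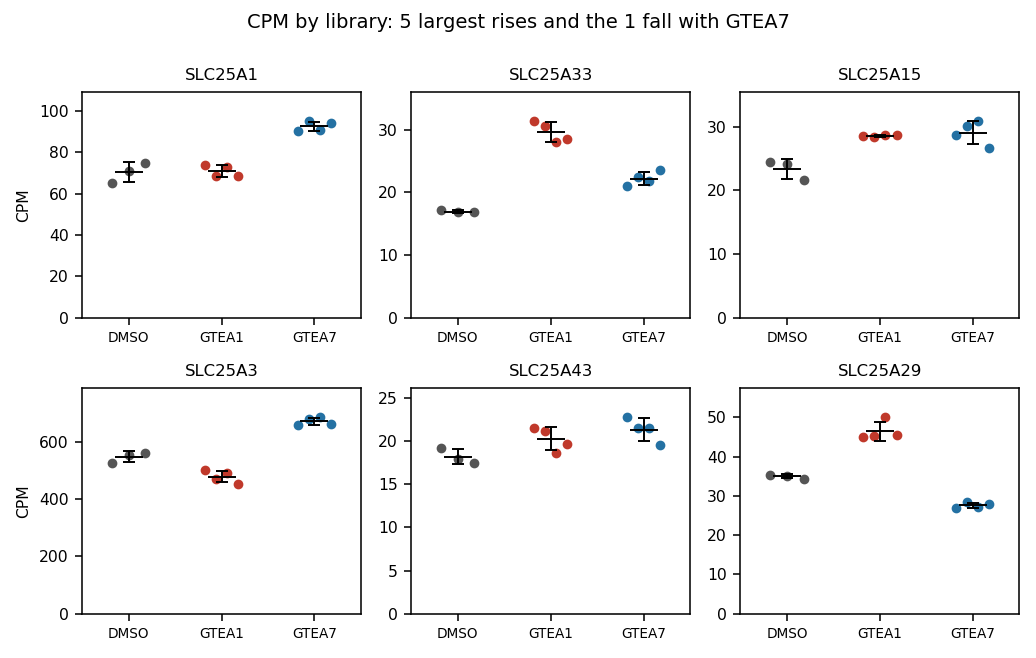
CPM (y axis, from 0) in each library for the 5 members of at least 1 CPM with the largest rises under GTEA7 and for SLC25A29, which fell. Points are libraries, bars the mean and SD of DMSO (n = 3), GTEA1 (n = 4) and GTEA7 (n = 4). The GTEA7 points lie apart from the DMSO points in each panel, by the least in SLC25A43.

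**Figure D5:**
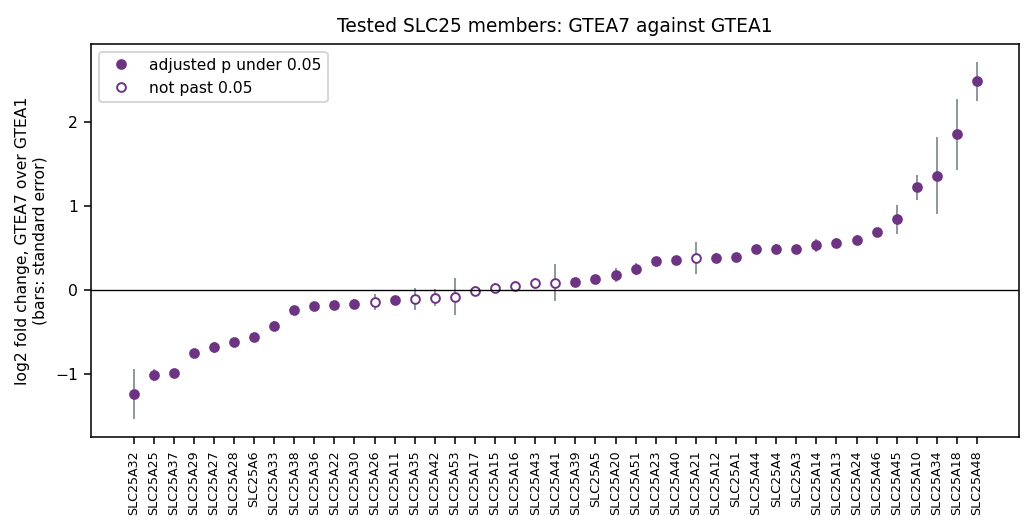
Log2 fold change of GTEA7 over GTEA1 (y axis) of 43 of the 44 tested members, in order of its size (x axis). Bars are standard errors and filled points have an adjusted p under 0.05. Values run from -1.23 (SLC25A32) to 2.48 (SLC25A48), with SLC25A25 and SLC25A37 at the lower and SLC25A10 and SLC25A18 at the upper end.

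Genes that work with the carriers were taken from lists of their pathways. The counts per list stand beside 35.6% of all tested genes higher and 36.2% lower with GTEA1, and 12.0% and 10.4% with GTEA7. For protein-coding genes these shares were 38.5% and 38.4%, and 14.9% and 12.4%. The counts per list are small and were not tested against these shares. Of the family proteins with other symbols (4 tested), 0 rose and 2 fell with GTEA1: the uncoupling proteins UCP2 (log2 -0.76 ± 0.11, adjusted p = 9.78e-09) and UCP3 (log2 -2.18 ± 0.27, adjusted p = 5.59e-10). MTCH1 and MTCH2, outer membrane relatives, were at 0.00 ± 0.04 and -0.02 ± 0.05 with GTEA1, and MTCH2 rose by 0.20 with GTEA7 (SE 0.05, adjusted p = 0.00111). Other inner membrane transporters (17 tested) had 5 rises and 9 falls with GTEA1 and 4 and 1 with GTEA7. MPC1, a subunit of the pyruvate carrier, rose by 1.25 and 0.38 (adjusted p = 2.64e-21 and 0.000167), and its partner MPC2 was at -0.08 ± 0.09 with GTEA1 and rose by 0.24 with GTEA7 (adjusted p = 0.0221). Of the outer membrane channels through which carrier substrates pass, VDAC2 rose by 0.51 with GTEA1, while VDAC1 fell by 0.40 and VDAC3 by 0.69 (adjusted p = 4.71e-18, 2.82e-14 and 6.28e-21). With GTEA7, VDAC1 rose by 0.22 and VDAC2 by 0.16 (adjusted p = 2.46e-06 and 0.000807), and VDAC3 did not pass (0.07, adjusted p = 0.206).

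The route by which carriers enter the inner membrane (19 tested) had 4 rises and 6 falls with GTEA1 and 6 rises and 0 falls with GTEA7. TIMM9, a chaperone of carriers between the membranes, rose by 0.65 with GTEA1 (SE 0.08, adjusted p = 6.36e-10), and TOMM40, the pore of the outer membrane, fell by 0.68 (SE 0.05, adjusted p = 1.44e-16).

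Enzymes of the malate-aspartate shuttle and citrate export (12 tested) had 5 rises and 5 falls with GTEA1 and 7 rises with GTEA7. GOT1, the cytosolic aspartate aminotransferase, rose by 1.56 with GTEA1 (SE 0.04, adjusted p = 1.43e-36), and the cytosolic malate dehydrogenase MDH1 fell by 0.60 (SE 0.04, adjusted p = 8.58e-19). ACLY, which cleaves the citrate that SLC25A1 exports, fell by 0.52 with GTEA1 and rose by 0.40 with GTEA7 (adjusted p = 1.65e-18 and 2.07e-13). Of the carnitine shuttle (10 tested), 3 rose and 5 fell with GTEA1 and 5 rose with GTEA7. CPT1A, which makes the acylcarnitines that SLC25A20 carries, fell by 0.66 with GTEA1 (SE 0.04, adjusted p = 2e-21).

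Enzymes of glutamine, ornithine and proline use (9 tested) had 5 rises and 3 falls with GTEA1, and 2 rises and 0 falls with GTEA7. ARG2, the mitochondrial arginase that makes ornithine, went from 3.65 ± 0.407 CPM to 36.3 ± 2.01 with GTEA1 (log2 3.32 ± 0.10, adjusted p = 6.24e-34). OAT, which uses ornithine, fell by 0.77 with GTEA1 (SE 0.04, adjusted p = 4.34e-23). Of the heme and iron-sulfur enzymes, which use the iron that SLC25A37 and SLC25A28 bring in and the glycine of SLC25A38, 5 of 10 tested rose and 4 fell with GTEA1, and 5 rose with GTEA7. ALAS1, the first enzyme of heme synthesis, rose by 2.02 (SE 0.04, adjusted p = 1.73e-40) and the iron-sulfur scaffold ISCU by 1.66 (SE 0.04, adjusted p = 1.37e-35), while CPOX, a late enzyme of heme synthesis, fell by 1.17 (SE 0.03, adjusted p = 3.76e-34). The tricarboxylic acid cycle had 5 rises and 7 falls of 17 tested with GTEA1 (29.4% and 41.2%, beside 35.6% and 36.2% of all genes). With GTEA7 it had 7 rises (41.2%, beside 12.0% of all genes and 14.9% of protein-coding genes). Regulators of mitochondrial gene expression had 3 rises and 3 falls of 10 with GTEA1, among them TFAM, which packs mitochondrial DNA (log2 -0.81 ± 0.05, adjusted p = 7.78e-21), and 3 rises with GTEA7, among them MYC (log2 0.36 ± 0.03, adjusted p = 1.05e-11).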

How the data were processed

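RNA of 11 HCT116 samples was sequenced after poly(A) selection and random priming, per the labels' protocols. The authors deposited 1 table of raw read counts per gene and library, which were used unscaled. Tools named, with no roles, in the submitters' processing notes are HTSeq 0.5.4, DESeq 1.10.1, SAMtools 0.1.18, STAR, GATK and Picard. Not given in the sources used here are the build, annotation, counting options and strand. Rows outside Ensembl IDs held 0.727% of all counts. Symbols came from a table of gene names (60370 IDs matched), gene types, lengths and overlaps from GENCODE v29, and promoter sequences from RefSeq.

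Groups came from the labels. Genes were kept by filterByExpr (17963), scaled by TMM, and tested in 1 fit of all 11 libraries with the quasi-likelihood F test of edgeR 4.0.16 (R 4.3.3), with Benjamini-Hochberg adjustment over all genes tested. Each standard error is the log2 fold change over the square root of its F. Length was the median of a gene's basic protein-coding transcripts. The script was tested on simulated counts. The members and lists were chosen with earlier results of these data known. Values in every library are given for the 5 largest rises and falls per extract and the 3 largest differences each way between extracts among called members of at least 1 CPM, and for 11 members whatever their values; 1 member, counted in all totals, is not reported here. From each list, up to 2 genes per direction with the smallest adjusted p could be named, with UCP2, MTCH1, MTCH2, MPC1 and MPC2 whatever their values, and the choice among these was made with their values in view. Alternatives were DESeq2 size factors, library size only, other low-count filters, a replicate block, a fit of the compared groups, limma-voom (limma 3.58.1), the Wald test of DESeq2 1.42.0 and leaving out each library.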

Additional observations from a re-analysis of the deposited data

Results flagged for a closer look

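In 96 groups of 4 libraries (44 members and 4 shares in each extract), 6 had a highest or lowest library far from the other 3 by Dixon's test at the 95% level. Chance gives about 1 in 20 such groups. In GTEA1 replicate 3, SLC25A25 stood at 27.8 CPM, the others at 25.5 to 25.8, and SLC25A29 at 50 CPM, the others at 45.1 to 45.4. In GTEA1 replicate 2, SLC25A41 stood at 1.76 CPM, the others at 1.22 to 1.3. In GTEA7 replicate 1, SLC25A22 stood at 33.7 CPM, the others at 29 to 29.5, and SLC25A30 at 40.3 CPM, the others at 43.9 to 44.5. In GTEA7 replicate 4, SLC25A25 stood at 11.6 CPM, the others at 13.3 to 13.6. Leaving out these libraries changed no call of SLC25A22, SLC25A25, SLC25A29, SLC25A30 or SLC25A41.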

How the results depend on the processing

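With GTEA1, 13 to 15 members were higher and 16 to 19 lower when each library was left out in turn. With GTEA7 it was 7 to 12 and 1 to 2, and between the extracts 19 to 22 and 12 to 13. For GTEA7 against DMSO, library size only gave 7 higher and 5 lower, and a fit of those 2 groups 3 lower. The value of SLC25A1 with GTEA1 turned from 0.01 to -0.15 with library size only. Of called members, 5 lost the call in at least 1 alternative with GTEA1, 7 with GTEA7 and 5 between the extracts. The values of these lost calls stand in the report beside the members. With library size only, SLC25A15, SLC25A16 and SLC25A43 were also called higher in GTEA7 than in GTEA1 (0.14, 0.15 and 0.19, adjusted p = 0.0273, 0.0325 and 0.00931). The cause was not tested other than where the scaling itself moves all genes.

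Same-numbered libraries did not deviate together (correlations of -0.055 to 0.0262), and the numbers are not taken to pair samples. With the replicate number as a block, 15 members were higher and 18 lower with GTEA1, 11 and 1 with GTEA7, and 20 and 13 between the extracts. The block changed the calls of SLC25A43 and SLC25A53 with GTEA1 and of SLC25A20 between the extracts, and no other.

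Without the mitochondrially encoded genes in the total, the members' share was 0.291% in DMSO, 0.278% in GTEA1 and 0.309% in GTEA7. On that scale every GTEA1 library (0.272% to 0.287%) lay just below every DMSO library (0.288% to 0.294%), where they otherwise overlapped. In the order DMSO, GTEA1, GTEA7, the shares of SLC25A4, SLC25A5 and SLC25A6 not divided by length were 6.12%, 3.89% and 6.01%, then 55.2%, 47.8% and 57.8%, then 38.6%, 48.3% and 36.2%. With all merged exons as the length, chosen after seeing the data, they were 2.26%, 1.46% and 2.2%, then 65.8%, 57.9% and 68.2%, then 31.9%, 40.6% and 29.6%. The order of the groups was the same for each carrier on each scale. Members under 1 CPM (SLC25A18, SLC25A32 and SLC25A34) rest on few counts.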
